A study of Homo sapiens with 32 samples.

Results

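Of the 32 RNA libraries of this study, 24 carry a replica number of 1, 2 or 3 in their titles and 8 carry none, with exactly 1 unnumbered library in each of the 8 conditions. The 8 unnumbered libraries were compared with the 24 numbered ones, condition by condition, to describe which genes and functions separated them. The labels give no reason for the missing number and name no culture, extraction, library or sequencing batch, so the libraries are called unnumbered and numbered here, and whatever the 8 unnumbered libraries share (culture, extraction or run) cannot be told apart. The p-values measure the spread between these libraries.

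All libraries came from MDA-MB-468, an established human triple-negative breast cancer cell line grown as a monolayer in flasks. Cells received PBS (control), 0.5 µM salinomycin (Sal, a polyether ionophore), 15 µM dasatinib (Das, an inhibitor of SRC and ABL family kinases) or both drugs together (S+D, 15.5 µM in all), and were collected after 24 h or 72 h. Each of these 8 conditions has 4 libraries, and no genetic change separates any of the groups. Since every condition gives 1 unnumbered and 3 numbered libraries, drug and time are balanced between the sets.

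Several of the gene groups below are known to follow the state of a culture. Carbonic anhydrase, glucose transporters and glycolytic enzymes are induced by the hypoxia-inducible factors, which prolyl hydroxylases mark for destruction as long as oxygen is at hand. Immediate early genes such as FOS, JUN and EGR1 are transcribed within minutes of a growth factor or stress signal and their messages decay quickly. S100 proteins, serum amyloid A and chemokines are made by epithelial cells under inflammatory signals, and ATF4 drives amino acid import and synthesis when supply is short.

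The unnumbered libraries were the deeper ones. Their total counts ran from 33.4 M to 42.8 M, against 25.7 M to 38.6 M in the numbered libraries, and the unnumbered library exceeded the mean of its 3 numbered counterparts in 8 of 8 conditions (mean difference 5.95 M counts; two-sided exact permutation test exchanging libraries within conditions, adjusted p = 0.000705 over 11 library measures). They also detected 22512 to 23383 genes with at least 1 count, against 21396 to 22774, and lay above all 3 numbered libraries in 8 of 8 conditions (exact permutation p = 1.53e-05, the smallest these exchanges can give). The mean GC content of the counted transcripts, weighted by counts, was 49.4% in the unnumbered and 48.5% in the numbered libraries, a difference of 0.880 percentage points (exact permutation test, adjusted p = 0.000168). Ribosomal protein genes took 3.00% against 2.59% of counts (adjusted p = 0.00839, exact permutation test). Their share was higher in the unnumbered library in 6 of 8 conditions and below all 3 numbered libraries in 1. The shares of protein-coding genes (97.99% against 98.00%) and of the 100 most abundant genes (13.3% against 13.4%) gave adjusted p-values of 0.910 and 0.703 in the same exact test. Antisense genes took 0.213% against 0.225% and long non-coding RNAs 1.06% against 1.00% of counts (adjusted p = 0.0137 and 0.0177, exact permutation test). The line's features were present in both sets. EGFR, which these cells carry at high copy, lay at 2830 to 5231 CPM (a library's counts scaled to the same total) in the unnumbered libraries. In the numbered ones it lay at 2740 to 5986 CPM, both by library totals. Of the mesenchymal markers, ZEB2 and SNAI2 were listed at 0 in all 32 libraries. Others of that list were expressed, such as MSN at 248.5 to 348.1 CPM against 242.2 to 377.2 CPM and VIM at 14.92 to 96.64 CPM against 6.374 to 116.9 CPM. The summed level of 12 luminal MCF-7 markers was 650 to 1865 CPM against 505 to 1876 CPM, and that of 12 mesenchymal MDA-MB-231 markers 390 to 632 CPM against 399 to 600 CPM, so that the ranges of both sets overlapped.

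After each condition's mean was subtracted, the unnumbered libraries separated from the numbered ones along the first principal component, which held 37.3% of the variance. They scored between 32.7 and 59.1 on it, and the numbered libraries between -30.7 and -1.39, with no overlap. A single difference common to all conditions took 35.1% of the within-condition sum of squares. The deviations of the 8 unnumbered libraries from their conditions correlated with each other at a Pearson r across genes of 0.356 to 0.672, with a median of 0.543 over the 28 pairs of conditions, a description over genes that share library and depth. Among numbered libraries that share a number, 84 such pairs had a median r of 0.003. The numbered library that stood apart was Das 72 h replicate 3, which scored 47.1 on the second component (12.1% of variance) while its numbered counterparts scored -32.8 and -25.3.

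**Figure D1:**
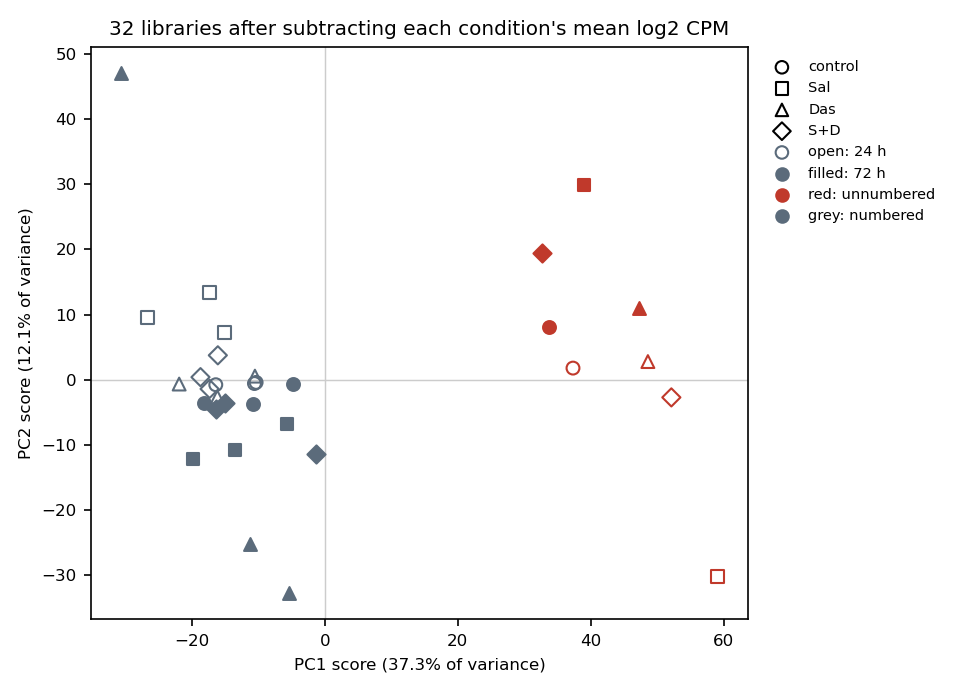
Principal component scores of the 32 libraries after subtracting each condition's mean log2 CPM, with the 8 unnumbered libraries marked apart from the 24 numbered ones. The unnumbered libraries lie at 32.7 to 59.1 on the first component and all numbered libraries below 0.

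In the edgeR quasi-likelihood fit with condition as a blocking term, 17227 genes passed the filter on low counts. At an adjusted p under 0.01 and a log2 difference (unnumbered minus numbered) beyond 1.5, the study's cutoffs, 132 genes (0.766%) were higher and 53 genes (0.308%) were lower in the unnumbered libraries. The adjusted p alone called 4605 genes higher (26.7%) and 4053 lower (23.5%). At a log2 difference of 1 with the adjusted p, 740 genes (4.3%) passed in either direction. Gene by gene, 1561 genes (9.06%) lay above all 3 numbered libraries in every one of the 8 conditions and 1272 genes (7.38%) lay below them. Of the genes past both cutoffs, 93 of the 132 and 25 of the 53 were among these. Only 41 of the 132 and 17 of the 53 averaged 1 CPM or more, so most of these calls were at low counts. With all libraries thinned to the lowest total count, the genes higher in the unnumbered libraries past both cutoffs were 114 and the genes lower in the unnumbered libraries 49. The median log2 difference over all genes was 0.02.

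The same question asked of the replica numbers gave no call. Libraries numbered 1, 2 or 3 were each compared with the other numbered libraries over 17043 genes, and 0 genes (0%) passed both cutoffs for any number in edgeR, with 644, 542 and 616 genes at an unadjusted p under 0.05. The median absolute log2 difference was 0.063, 0.057 and 0.062 for the 3 numbers, against 0.28 for the unnumbered libraries. The unnumbered comparison rests on 8 libraries against 24 and each of the others on 8 against 16.

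Genes of glycolysis and of the hypoxia response had the highest median among the lists with more than 1 tested member. Of 28 tested members, 23 were higher and 2 lower at an adjusted p under 0.01, where 26.7% and 23.5% of all genes were, and the list's median log2 difference was 0.69. These shares of all genes are the background for the counts of the other lists too. CA9, which encodes the membrane carbonic anhydrase IX that keeps acid-producing cells at a normal internal pH (GRCh37 chromosome 9, 35673925-35681156), differed most among the list's members. In the control at 24 h it stood at 208 CPM in the unnumbered library and at 35.6, 54.2 and 53.4 CPM in the numbered ones. After 24 h of S+D it stood at 216 CPM against 8.35, 11.5 and 9.40 CPM. In the control at 72 h the values were 295 CPM against 173, 184 and 207 CPM, so that the unnumbered library was again above all 3, by less. Over all conditions CA9 was 91.6, 172 and 295 CPM (lowest, median, highest) in the unnumbered libraries. In the numbered ones it was 8.35, 42.1 and 207 CPM, a log2 difference of 2.30 ± 0.24 (SE, edgeR adjusted p = 1.52e-09). CA9 is also among the 12 largest rises, which were chosen for lying above all numbered libraries in all 8 conditions. Of its exon bases, 35.7% are shared with other annotated genes, so reads there are uncertain.

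Further members were higher too. ADM, the vasodilator peptide adrenomedullin, differed by 1.54 ± 0.18, ENO2, an enolase of glycolysis, by 1.5 ± 0.15 and ANKRD37 by 1.46 ± 0.24 (log2 ± SE, adjusted p = 2.04e-08, 1.09e-09 and 5.95e-06). ANKRD37 lay above all numbered libraries in 6 conditions and below them in 1, at -0.54 to 3.41 in single conditions. Of its exon bases, 40.3% are shared with other annotated genes. EGLN3, one of the prolyl hydroxylases that act on the hypoxia-inducible factors, differed by 1.27, the triose phosphate isomerase TPI1 by 1.24, the phosphoglycerate kinase PGK1 by 0.85 and the glucose transporter SLC2A1 by 0.74, each above all numbered libraries in 8 of 8 conditions. Within the same pathway, the phosphoglycerate mutase PGAM1 was lower by 0.92 ± 0.08 on the log2 scale (-0.92), below all numbered libraries in 8 of 8 conditions (8.74 to 16.5 CPM against 13.5 to 30.5 CPM), and the carbonic anhydrase CA12 had a log2 difference of -0.50. LDHA, lactate dehydrogenase A, did not pass (0.21, adjusted p = 0.0123).

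Outside the list, 4 of the 12 genes with the largest differences are also known to be induced by hypoxia or to sit beside such a gene. ANGPTL4, a secreted inhibitor of lipoprotein lipase (GRCh37 chromosome 19, 8428173-8439254), lay at 3.78, 13.9 and 25.3 CPM in the unnumbered and 0.673, 2.92 and 13.4 CPM in the numbered libraries (lowest, median, highest), a log2 difference of 2.18 ± 0.18 (adjusted p = 2.91e-11). MIR210HG, the host transcript of the hypoxia-induced microRNA miR-210, differed by 1.95 ± 0.20, and PPFIA4, a liprin scaffold protein, by 1.94 ± 0.22. GAL3ST1, a sulfotransferase that makes sulfatide, differed by 2.33 ± 0.30 from a low level (0.307 to 10.8 CPM against 0 to 7.04 CPM). All 4 were named by a rule that required the unnumbered library above all numbered ones in all 8 conditions. Their ranges over all conditions overlapped.

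The promoters of 5 of these genes are printed because the hypoxia-inducible factors bind the core ACGTG, or CACGT on the opposite strand. Each covers 250 bases before and 50 bases after the RefSeq start on GRCh38.p14, in the direction of the gene, with the matches in capitals.
CA9, chr9:35673678-35673977, plus strand: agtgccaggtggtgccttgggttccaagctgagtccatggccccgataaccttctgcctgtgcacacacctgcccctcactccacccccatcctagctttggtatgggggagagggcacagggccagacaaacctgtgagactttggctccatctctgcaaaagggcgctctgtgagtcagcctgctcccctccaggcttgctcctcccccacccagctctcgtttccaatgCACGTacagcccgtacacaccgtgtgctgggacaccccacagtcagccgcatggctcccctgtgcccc
ANGPTL4, chr19:8363905-8364204, plus strand: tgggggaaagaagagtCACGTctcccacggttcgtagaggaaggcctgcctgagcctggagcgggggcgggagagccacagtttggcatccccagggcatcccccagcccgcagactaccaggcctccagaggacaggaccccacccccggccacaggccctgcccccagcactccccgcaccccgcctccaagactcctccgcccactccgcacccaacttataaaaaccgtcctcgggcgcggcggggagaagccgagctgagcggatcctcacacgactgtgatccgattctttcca
PPFIA4, chr1:203026241-203026540, plus strand: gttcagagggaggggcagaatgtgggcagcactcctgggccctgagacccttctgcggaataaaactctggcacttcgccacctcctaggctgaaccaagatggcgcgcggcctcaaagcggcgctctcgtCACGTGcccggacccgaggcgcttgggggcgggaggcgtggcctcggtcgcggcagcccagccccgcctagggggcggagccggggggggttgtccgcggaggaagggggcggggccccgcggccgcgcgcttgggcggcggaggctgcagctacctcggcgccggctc
MIR210HG, chr11:568408-568707, minus strand: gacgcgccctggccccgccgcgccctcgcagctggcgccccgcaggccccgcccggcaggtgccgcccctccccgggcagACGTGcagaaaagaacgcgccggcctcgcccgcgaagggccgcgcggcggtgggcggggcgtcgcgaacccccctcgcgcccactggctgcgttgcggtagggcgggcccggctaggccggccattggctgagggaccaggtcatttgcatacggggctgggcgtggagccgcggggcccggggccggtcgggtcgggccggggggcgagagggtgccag
ENO2, chr12:6914330-6914629, plus strand: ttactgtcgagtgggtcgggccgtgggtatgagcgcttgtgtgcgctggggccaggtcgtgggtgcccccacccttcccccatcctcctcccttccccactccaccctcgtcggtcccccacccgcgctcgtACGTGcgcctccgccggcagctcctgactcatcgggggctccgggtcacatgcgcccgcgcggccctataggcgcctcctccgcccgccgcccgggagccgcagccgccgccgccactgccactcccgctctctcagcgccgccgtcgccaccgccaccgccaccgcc

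The match begins 18 bases before the start in CA9 (position -18), and at -234 in ANGPTL4, -170 in MIR210HG and -118 in ENO2. PPFIA4 holds overlapping matches on both strands, at -119 and -118. The core occurred in 21.4% of 35116 RefSeq promoters, in 31.5% of the 11935 tested genes with a promoter and in 15 of the 24 list members with one (62.5%). A match is a description of these letters and not a bound site.

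**Figure D2:**
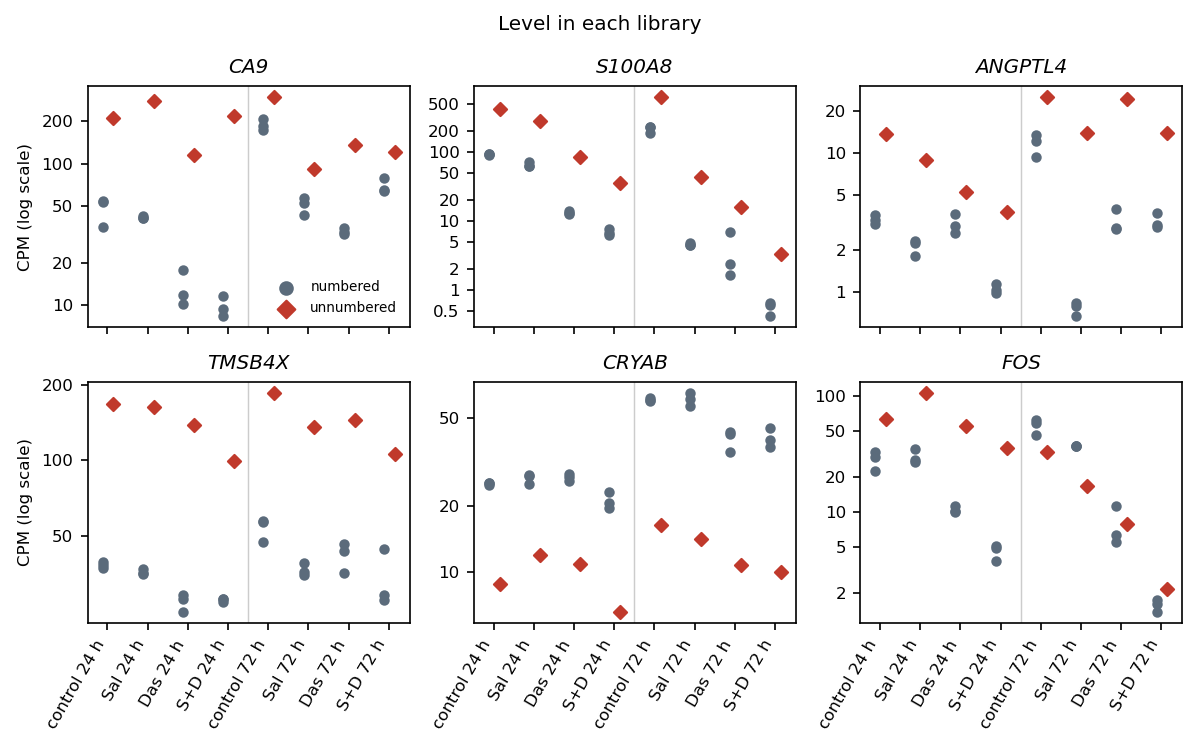
CPM of CA9, S100A8, ANGPTL4, TMSB4X, CRYAB and FOS in each of the 32 libraries by condition, on a log axis, with the unnumbered library marked in each condition. CA9 at S+D 24 h is 216 CPM against 8.35 to 11.5 CPM. CRYAB is at 6.62 to 16.3 CPM in the unnumbered and 19.4 to 64.9 CPM in the numbered libraries. FOS is above all numbered libraries in the 4 conditions at 24 h and in S+D at 72 h. In control and Sal at 72 h it is below them.

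The hypoxia list had a larger median at 24 h than at 72 h. Its median log2 difference was 0.93 at 24 h and 0.36 at 72 h, and in single conditions it ran from 0.10 (control 72 h) to 1.43 (S+D 24 h). The fall was not seen under every treatment. From 24 h to 72 h the median went from 0.62 to 0.10 in the control, 1.02 to 0.29 after Sal and 1.43 to 0.23 after S+D. After Das the list stood at 0.62 at 24 h and 0.60 at 72 h. In the edgeR test of the change, 12 of its 28 members had a smaller difference at 72 h, where 73 of all genes (0.424%) did and 41 (0.238%) had a larger one. CA9 fell from a log2 difference of 3.20 at 24 h to 1.12 at 72 h (adjusted p = 0.000328), PPFIA4 from 2.79 to 0.84 (change -1.95 ± 0.28, adjusted p = 0.000111) and MIR210HG from 2.78 to 1.0 (adjusted p = 0.000218). NDRG1, a stress-induced growth regulator, fell from 1.94 to 0.48 (adjusted p = 5.44e-05) and PGK1 from 1.2 to 0.47 (adjusted p = 5.44e-05). BNIP3, a mediator of mitophagy, had a log2 difference of 1.21 at 24 h and -0.04 at 72 h (adjusted p = 5.44e-05). ANGPTL4 went the other way in value, with 1.70 at 24 h and 2.60 at 72 h, which did not pass (adjusted p = 0.117).

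Of 17 tested immediate early genes, 6 had a smaller difference at 72 h than at 24 h, FOS and JUN among them. FOS, a subunit of the AP-1 transcription factor (GRCh37 chromosome 14, 75745529-75748933), stood at 62.9 CPM in the unnumbered library of the control at 24 h, against 22.7, 33.0 and 29.7 CPM. In the control at 72 h it stood at 32.8 CPM against 46.3, 57.7 and 62.2 CPM. The unnumbered library was thus the highest of the 4 control libraries at 24 h and the lowest at 72 h. At 72 h it was also the lowest for FOS after Sal (16.8 CPM), lay within the numbered libraries after Das (7.79 CPM against 5.51 to 11.1 CPM) and was the highest after S+D. The log2 difference of FOS was 2.12 at 24 h and -0.45 at 72 h, a change of -2.57 ± 0.30 (adjusted p = 1.08e-05). JUN, its partner, went from 1.79 to -0.11 (change -1.90 ± 0.23, adjusted p = 1.87e-05), the zinc finger factor EGR1 from 1.33 to -1.68 (adjusted p = 0.000328) and FOSB from 1.46 to -0.30 (adjusted p = 0.000734). Of the 17 members, 9 were higher and 2 lower over all conditions, with medians of 0.90 at 24 h and -0.11 at 72 h. In single conditions at 72 h the median was -0.38 in the control and 0.06, 0.11 and 0.13 after Sal, Das and S+D, so that it was below 0 in the control alone. IER2 was above all numbered libraries in 8 of 8 conditions (0.93 ± 0.08), and MYC gave -0.18, which did not pass (adjusted p = 0.0624).

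Over all genes, the difference between the sets changed with time past both cutoffs for 24 genes (0.139%), of which 21 were smaller and 3 larger at 72 h. The 3 larger ones were CLMP, CLSTN2 and BMP3, the last a BMP family ligand, and CLSTN2 and BMP3 were named after their values were seen. CLMP, a cell adhesion protein of tight junctions, lay at 0.494 CPM against 1.18, 1.26 and 1.13 CPM in the control at 24 h and at 0.700 CPM against 0.603, 0.661 and 0.639 CPM at 72 h. Its log2 difference was -1.53 at 24 h and 0.30 at 72 h (change 1.83 ± 0.22, adjusted p = 1.87e-05). The count changed when single libraries were left out, in fits that also applied the low-count filter anew. It was 77 without Das 72 h replicate 3 and 64 without the unnumbered control at 24 h. Without the unnumbered libraries of Sal 72 h, Sal 24 h and S+D 72 h it was 11, 12 and 15.

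Of the epithelial inflammatory genes, S100A9, S100A7 and SAA1 were above all numbered libraries in 8 of 8 conditions. S100A8 was too, but the naming rule chose it for that. S100A8, a subunit of calprotectin (GRCh37 chromosome 1, 153362508-153363549), stood at 427 CPM against 92.6, 94.8 and 90.3 CPM in the control at 24 h. At 72 h it stood at 628 CPM against 234, 230 and 189 CPM in the control and at 3.31 CPM against 0.608, 0.655 and 0.418 CPM after S+D. The level of S100A8 within the unnumbered libraries alone ran from 3.31 to 628 CPM. Its log2 difference was 2.34 ± 0.13 (adjusted p = 6.57e-15), with 2.33 at 24 h and 2.35 at 72 h. S100A9, the other subunit, differed by 1.35 ± 0.10, S100A7 (psoriasin) by 1.39 ± 0.15 and SAA1, serum amyloid A, by 1.75 ± 0.13. The acute phase lipocalin LCN2 was higher by 0.62 ± 0.10 (adjusted p = 2.3e-06), above in 6 conditions and, in Sal at 72 h, below all 3 numbered libraries by a small margin (418.7 CPM against 419.7 to 423.0 CPM). The neutrophil chemokine CXCL8 was higher by 1.44 ± 0.19 and above in 7 conditions.

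Of 19 tested chemokine, cytokine and acute phase genes, 13 were higher and 1 lower, with a median log2 difference of 0.62. The chemokine CXCL1 (0.40, adjusted p = 0.0645) and CXCL2 (0.44, adjusted p = 0.0341) did not pass. Of 17 genes of keratinocyte differentiation, 7 were higher and 4 lower (median 0.53, with 0.16 at 24 h and 0.47 at 72 h), with the elastase inhibitor PI3 at 1.24 ± 0.18. Without the unnumbered library of Sal 72 h that median was 0.24, and after correction for GC content and length it was 0.34, with 7 higher and 6 lower. Keratins and junction genes were mixed, with 12 higher and 4 lower of 28 and a median of 0.16. That median was 0.08 without the unnumbered library of Sal 72 h, and it was below 0 both after the GC and length correction (-0.06, with 7 higher and 6 lower) and in the 22 members without a named pseudogene (-0.02, with 7 higher and 4 lower). Within the list, the stress keratin KRT17 was 54.1 to 236 CPM against 7.68 to 133 CPM, a log2 difference of 1.51 ± 0.14 (adjusted p = 2.71e-10, above in 8 of 8 conditions), and the junction genes PKP3, CLDN7 and CLDN4 differed by 0.76, 0.72 and 0.69. The basal keratin KRT5 gave -0.05 (adjusted p = 0.754). FGG, the gamma chain of fibrinogen, differed by 1.90 ± 0.26 and PTPRH, a receptor tyrosine phosphatase, by 2.08 ± 0.22. Both were named by the rule that required the unnumbered library above in all 8 conditions.

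ATF4 targets were higher in most members by a moderate amount. Of 18 tested members, 15 were higher and 1 lower (median 0.43, and 0.30 to 0.62 in single conditions), and 11 lay above all numbered libraries in all 8 conditions. ATF3, a stress-induced transcription factor that also counts among the immediate early genes, differed by 1.03 ± 0.14, DDIT3, which encodes CHOP, by 0.90 ± 0.16 and DDIT4, an inhibitor of mTORC1, by 0.83 ± 0.09. SLC3A2, the heavy chain of amino acid transporters, was 292 to 1015 CPM against 158 to 530 CPM and differed by 0.82 ± 0.06 (adjusted p = 1.63e-12). The member that was lower was SLC7A11, the cystine transporter (-0.36 ± 0.10). Among endoplasmic reticulum chaperones 4 of 16 were higher and 1 lower (median 0.02, and -0.08 to 0.08 when single libraries were left out), with SDF2L1 at 1.10 ± 0.13 and CANX, calnexin, at -0.30 ± 0.04. The chaperone median was 0.19 at 24 h and -0.21 at 72 h. In single conditions it ran from -0.28 (S+D 72 h) to 0.64 (Sal 24 h).

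Interferon-stimulated genes had 13 of 29 members higher and 3 lower (median 0.28), and MHC class I genes 9 of 12 higher and 1 lower (median 0.36). ISG15, a ubiquitin-like modifier, lay at 21.2, 27.3 and 66.5 CPM in the unnumbered and 4.29, 11 and 35.8 CPM in the numbered libraries (lowest, median, highest), a log2 difference of 1.60 ± 0.11 (adjusted p = 1.31e-12). IFI6 differed by 0.89 ± 0.09, HLA-F by 0.92 ± 0.10, HLA-B by 0.72 ± 0.07 and the peptide transporter TAP1 by 0.65 ± 0.05, all above in 8 of 8 conditions. MX1, an antiviral GTPase, gave -0.07 (adjusted p = 0.458), so the members of the list did not move as one.

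Among extracellular matrix and integrin genes, 14 of 29 were higher and 2 lower (median 0.39, with 0.05 at 24 h and 0.61 at 72 h). Fibronectin (FN1) differed by 1.21 ± 0.12, the laminin chain LAMB3 by 1.24 ± 0.15, the fibronectin receptor ITGA5 by 1.12 ± 0.09 and the anchoring collagen COL7A1 by 0.88 ± 0.11. The integrin beta chain ITGB1 was lower (-0.25 ± 0.04). Among Notch pathway genes, 5 of 10 were higher and 0 lower (median 0.19), led by HES4 (1.25 ± 0.09) and the ligand JAG2 (0.76 ± 0.10). The Notch list has a median GC content of 58.35%. After correction for GC content and length, 4 of its members were higher and 0 lower, with a median of 0.09. BMP target genes ID1 (1.04 ± 0.10) and ID3 (0.80 ± 0.09) were higher, in a TGF-beta and BMP list with 4 of 14 higher and 7 lower, among them the ligand TGFB2 (-0.78 ± 0.09).

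Among the lists on translation and energy supply, snoRNA host genes, ribosomal protein genes and oxidative phosphorylation subunits had many more members higher than lower. Translation factors were mixed (7 of 17 higher, 4 lower, median 0.04). Ribosome biogenesis genes had 7 of 26 higher (26.9%) and 6 lower (23.1%), near the 26.7% and 23.5% of all genes. Of 23 tested snoRNA host genes, whose introns release the guide RNAs of ribosomal RNA modification, 19 were higher and 0 lower (median 0.57). SNHG15 lay at 43.9 to 74.6 CPM against 18.4 to 33.5 CPM, without overlap, a log2 difference of 1.25 ± 0.05 (adjusted p = 3.32e-17), and SNHG19 differed by 1.36 ± 0.11. Of 78 ribosomal protein genes, 46 were higher and 9 lower (median 0.37), led by RPS27A (139 to 215 CPM against 42.8 to 93.1 CPM, 1.73 ± 0.07, adjusted p = 2.43e-18) and RPL39 (1.53 ± 0.11). The 25 of them under 100 CPM had a median of 0.51 and the 53 at 100 CPM or more 0.18. Only 2 ribosomal protein genes have no pseudogene named after them, and their median was -0.12.

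Of 37 nuclear-encoded subunits of oxidative phosphorylation, 23 were higher and 2 lower (median 0.39), and 14 were above in all 8 conditions. SDHC, a membrane anchor of succinate dehydrogenase, was 37.3 to 45.2 CPM against 16.6 to 23.4 CPM, without overlap (1.09 ± 0.05, adjusted p = 4.48e-17). UQCRB, a subunit of complex III, went the other way at 51.6 to 78.5 CPM against 103 to 230 CPM, also without overlap (-1.08 ± 0.09, adjusted p = 2.82e-11). A pseudogene is named after UQCRB, so its reads are uncertain. The 11 members of the list without a named pseudogene had 8 higher and 0 lower. Among proteasome genes 15 of 25 were higher and 1 lower (median 0.29), with PSMA7 at 166 to 265 CPM against 80.8 to 145 CPM, without overlap, and among lysosome genes 13 of 21 were higher and 1 lower (median 0.25), with the galactosidase GLA at 0.69 ± 0.06 and the saposin precursor PSAP at 0.55 ± 0.05. Outside these lists, TMSB4X, the actin monomer-binding thymosin beta 4 (GRCh37 chromosome X, 12993229-12995346), lay at 99.7, 141 and 186 CPM against 24.9, 35.8 and 57.4 CPM (lowest, median, highest), without overlap, a log2 difference of 1.96 ± 0.06 (adjusted p = 3.3e-20). The mitochondrial co-chaperonin HSPE1 was also higher without overlap (24.5 to 39.0 CPM against 8.90 to 15.7 CPM, 1.4 ± 0.08).

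**Figure D3:**
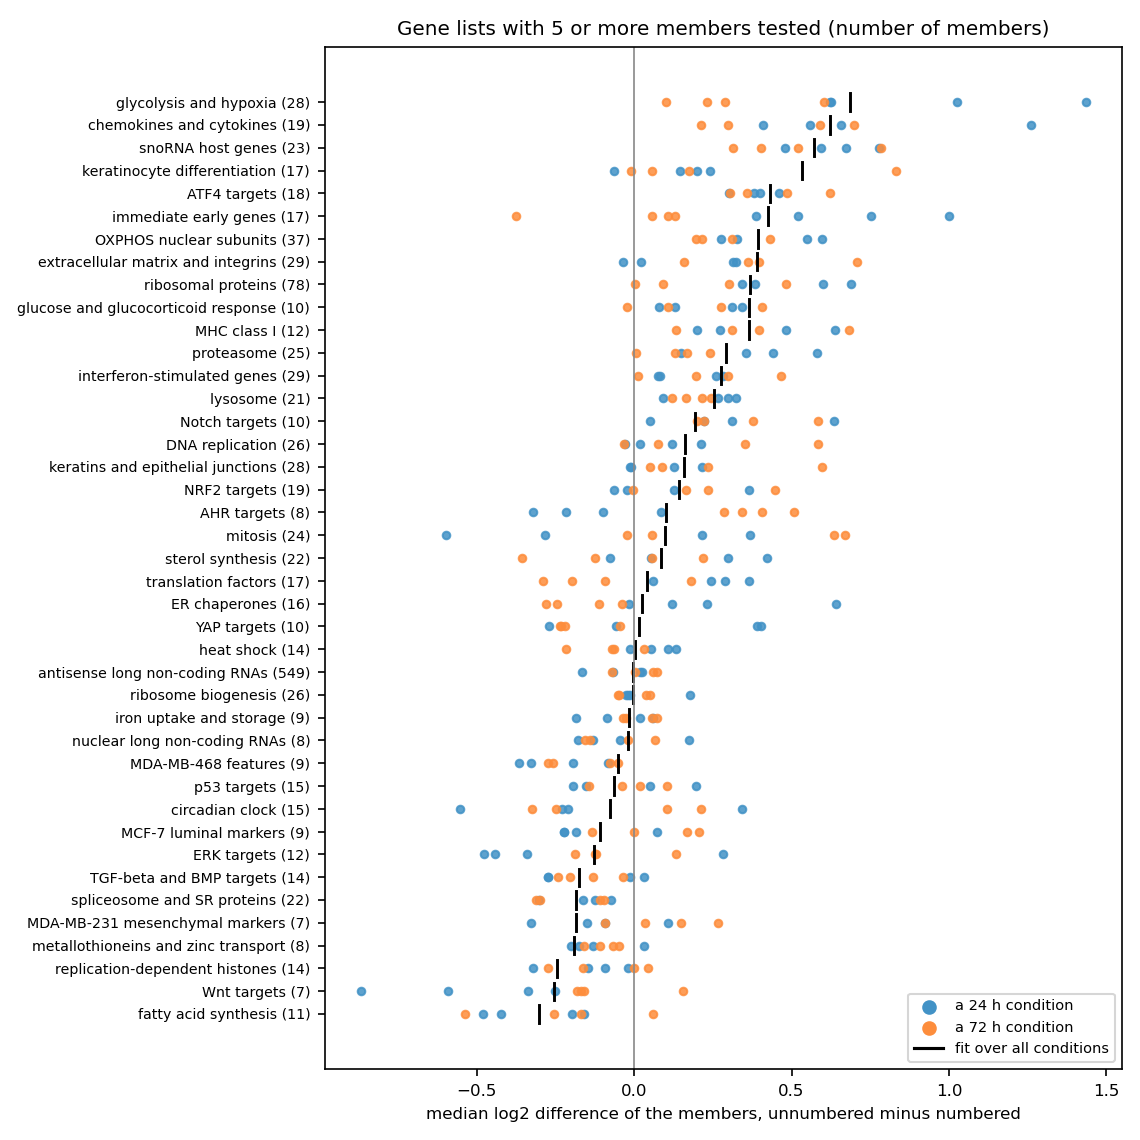
Median log2 difference (unnumbered minus numbered) of the gene lists, leaving out those with the fewest tested members. A bar marks the fit over all conditions, and points mark the 8 single conditions, coloured by time. The bar of the glycolysis and hypoxia list lies at 0.69 and its points at 0.10 to 1.43. The bars of the fatty acid synthesis, histone and Wnt lists lie below 0.

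Fewer groups were lower in the unnumbered libraries. Of 11 genes of fatty acid synthesis, 6 were lower and 0 higher (median -0.30). In the 9 of them without a named pseudogene, 4 were lower and the median was -0.09. ELOVL6, a fatty acid elongase, gave -0.91 ± 0.09, the acyl-CoA synthetase ACSL3 -0.63 ± 0.06, the desaturases FADS2 -0.54 ± 0.07 and SCD -0.48 ± 0.08. Sterol synthesis genes, which are under related control by the SREBP factors, were mixed, with 4 of 22 higher and 2 lower (median 0.09, and 0.0088 without the unnumbered control at 24 h), including SQLE at -0.42 ± 0.08 and PMVK at 0.62 ± 0.09. Their shares of 18.2% higher and 9.09% lower were under the 26.7% and 23.5% of all genes. Of 22 spliceosome and SR protein genes, 12 were lower and 3 higher (median -0.18), with HNRNPC at -0.58 ± 0.04 and TRA2A at -0.49 ± 0.06. These have a median GC content of 39.6%, and after correction of each library for GC content and length 5 were lower, 5 higher and the median was 0.0083. Of 14 replication-dependent histone genes, 5 were lower and 1 higher (median -0.25), with H2BC5 at -0.58 ± 0.12, and their share of counts was 0.00574% against 0.00717% (exact permutation test, adjusted p = 0.000378). Of 7 Wnt targets, 3 were lower and 0 higher, among them the transcription factor TCF7 (-0.56 ± 0.11) and the adhesion receptor CD44 (-0.51 ± 0.10).

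CRYAB, the small heat shock protein alpha B crystallin (GRCh37 chromosome 11, 111779288-111794446), stood at 8.86 CPM against 25.3, 25.3 and 24.7 CPM in the control at 24 h and at 16.3 CPM against 59.6, 59.8 and 61.2 CPM at 72 h. Over all conditions the unnumbered libraries lay at 6.62 to 16.3 CPM and the numbered ones at 19.4 to 64.9 CPM, with no overlap. Its log2 difference was -1.68 ± 0.08 (adjusted p = 3.01e-16), and it went from -1.4 at 24 h to -1.97 at 72 h (adjusted p = 0.00247). EN1, a homeobox factor, lay at 1.25 to 3.02 CPM against 3.07 to 11.9 CPM (-1.61 ± 0.10). OBP2B, an odorant-binding lipocalin, gave -1.77 ± 0.15 and NPIPB3, of a family of near-identical copies on chromosome 16 whose reads are uncertain, -1.71 ± 0.12. MIF, macrophage migration inhibitory factor, lay at 51.1 to 78.2 CPM against 125 to 295 CPM (-1.57 ± 0.08), but 94.1% of its exon bases are shared with another annotated gene, as are 100% of those of the read-through gene HNRNPUL2-BSCL2 (-1.84 ± 0.14), and the strand setting of the counting is not given in the sources used here. The clock repressor BHLHE41 gave -1.16 ± 0.07 and the poly(A)-binding protein PABPC1 -0.57 ± 0.04, both below in 8 of 8 conditions.

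**Figure D4:**
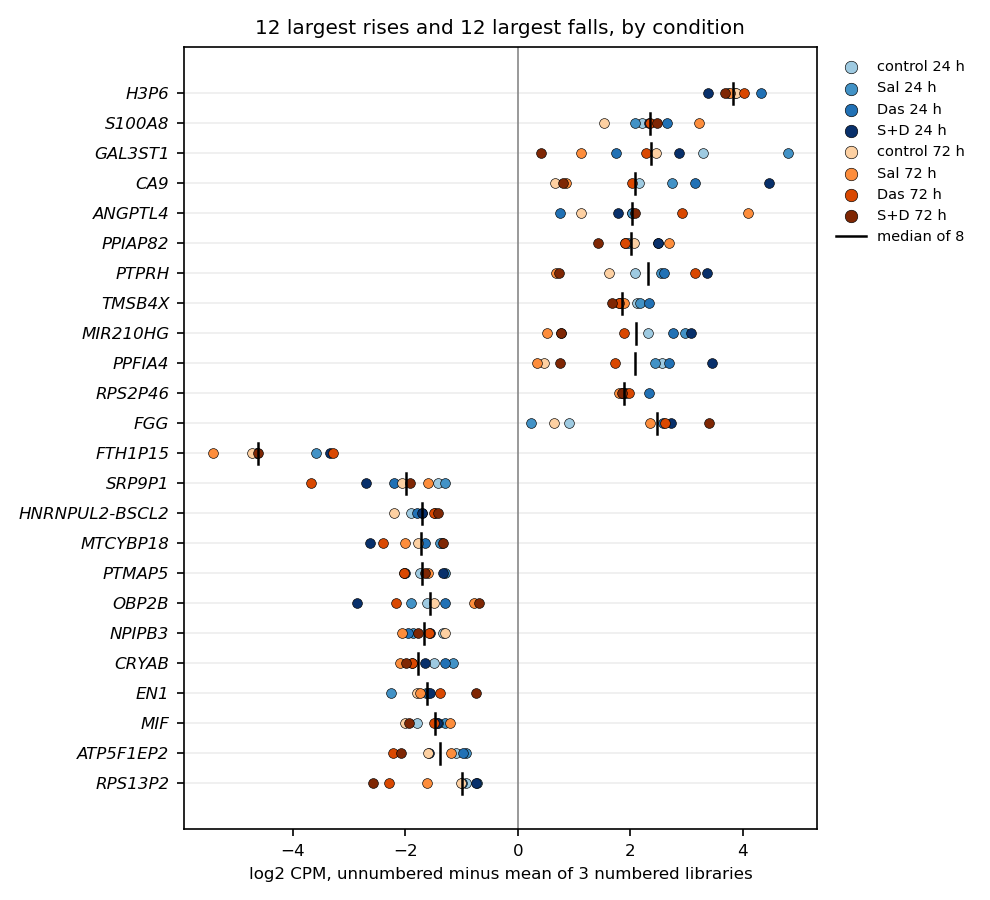
Log2 difference (unnumbered minus numbered) in each of the 8 conditions for the 12 named genes with the largest rises and the 12 with the largest falls, with the median of the 8. H3P6 lies at 3.38 to 4.32 and FTH1P15 at -5.43 to -3.29. The genes were chosen for lying beyond all numbered libraries in all 8 conditions, so every point lies on the side of its gene's median.

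Among proliferation genes, the share called higher was near the background of 26.7% and the share called lower was under that of 23.5%. For DNA replication 7 of 26 were higher (26.9%) and 1 lower (3.85%), with a median of 0.16. For mitosis 7 of 24 were higher (29.2%) and 0 lower (0%), with a median of 0.10 and CDC20, an activator of the anaphase-promoting complex, at 0.70 ± 0.14. The mitosis medians in single conditions ran from -0.60 (Sal 24 h) to 0.67 (Sal 72 h). Leaving out single libraries moved the DNA replication members called higher from 7 to between 4 (without the unnumbered library of Sal 72 h) and 14 (without Das 72 h replicate 3), with medians of 0.11 and 0.20. It moved the mitosis members called higher to 3 without the unnumbered library of Sal 72 h and to 4 without that of S+D 24 h or S+D 72 h, with list medians of 0.03 to 0.16. In the 17 mitosis genes without a named pseudogene, 4 were higher and the median was -0.0067, and after the GC and length correction the DNA replication list had 4 higher and a median of 0.09. The other lists mostly held calls in both directions. Heat shock genes split into 4 higher and 4 lower of 14, among the latter HSPA8 (-0.48 ± 0.05). Of 15 p53 targets 4 were higher and 5 lower, of 12 ERK targets 2 and 3, of 10 YAP targets 2 and 2, of 15 clock genes 3 and 5, of 9 iron genes 3 and 2 and of 8 nuclear long non-coding RNAs 2 and 2. NRF2 targets had 8 higher and 3 lower of 19, glucose and glucocorticoid response genes 5 and 2 of 10, targets of the aryl hydrocarbon receptor 3 and 1 of 8 and metallothionein and zinc transport genes 1 and 3 of 8. Within these, CYP1A1 differed by 0.81 ± 0.11 and the p53 target and cell cycle inhibitor CDKN1A by 0.86 ± 0.08. Of 549 antisense long non-coding RNAs, 84 (15.3%) were higher and 90 (16.4%) lower, both under the background. The single tested gene of the RNA polymerase III list was not called. Of the line's own features, 1 of 9 was higher and 4 were lower, including EGFR (-0.38 ± 0.07). Of the luminal markers 3 of 9 were higher and 4 lower, with GATA3 at -0.60 ± 0.06, and of the mesenchymal markers 2 of 7 and 1, with VIM at 0.43 ± 0.12.

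The difference was tested for a change with each drug in a fit that also held the change with time. Adding Sal changed it past both cutoffs for 0 of 17227 genes (0%) in edgeR and 0 in DESeq2, and 1449 genes had an unadjusted p under 0.05. For Das, 3 genes (0.0174%) passed, all with a lower value under Das. ALPP, placental alkaline phosphatase, changed by -1.55 ± 0.26 (adjusted p = 0.00289), and its log2 difference was 1.12 and 2.1 in control and Sal at 72 h and 0.31 and -0.80 in Das and S+D at 72 h. GNG11, a G protein gamma subunit, changed by -1.56 ± 0.27 (adjusted p = 0.00456). The third, ENSG00000255375, was named after its values were seen and had a mean of only 0.160 CPM. ALPP is one of several near-identical alkaline phosphatase genes, so its reads are uncertain. FOS changed the other way with Das (1.16 ± 0.19, adjusted p = 0.00289), short of the size cutoff, with a log2 difference at 24 h of 1.16 in the control, 1.85 in Sal, 2.4 in Das and 2.94 in S+D. When single libraries were left out, with the low-count filter applied anew, the count of 3 ranged from 0 to 10. It was 0 without the unnumbered library of control 24 h or of Das 72 h and 1 without that of S+D 24 h. It was 5 without that of Das 24 h or S+D 72 h, 6 without that of Sal 24 h and 10 without Das 72 h replicate 3.

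Processed pseudogenes, copies of messenger RNAs put back into the genome, were frequent among the large differences. Of 431 tested, 27.15% passed a log2 difference of 1 with the adjusted p (74 higher and 43 lower), where 3.09% of 13519 protein-coding genes and 4.3% of all genes did. Past both cutoffs 45 were higher and 14 lower, and 6 of the 12 named genes with the largest falls were pseudogenes. H3P6 (GRCh37 chromosome 2, 175584636-175585046) lay at 4.86, 9.88 and 13.8 CPM in the unnumbered and 0.209, 0.472 and 1.24 CPM in the numbered libraries, a log2 difference of 3.93 ± 0.12 (adjusted p = 4.22e-21). All 362 windows of 50 bases, the length of a read, that fit into H3P6 also occur in transcripts of H3-3A, a gene of histone H3.3, so its reads are uncertain. H3-3A itself was higher by 1.67 ± 0.13, but from a low mean level (5.21 against 1.67 CPM), and its reads in the shared windows are uncertain too. H3-3B, the other gene of histone H3.3, was named outside the rule. It averaged 469.6 against 437.6 CPM and did not pass (0.10 ± 0.04, edgeR adjusted p = 0.0435). FTH1P15 (GRCh37 chromosome 6, 56869318-56869597) was the largest fall, at 0.0508 to 0.280 CPM against 1.77 to 7.4 CPM (-4.65 ± 0.21, adjusted p = 1.25e-16), with 12.6% of its windows found in FTH1, the ferritin heavy chain (-0.53 ± 0.08). RPS2P46 differed by 1.94 ± 0.07 (48.6% of windows in RPS2, itself at 0.73 ± 0.06) and PPIAP82 by 2.14 ± 0.15 (0% in PPIA, itself at 0.36 ± 0.05).

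In several pairs the pseudogene and its parent went opposite ways, and of these RPS27AP16 and TMSB4XP8 were named outside the rule. SRP9P1 gave -2.29 ± 0.29 and SRP9, a signal recognition particle protein, 0.29 ± 0.06, although 100% of the pseudogene's windows occur in the parent. RPS13P2 gave -1.42 ± 0.21 and RPS13 0.51, ATP5F1EP2 -1.56 ± 0.22 and ATP5F1E 0.50, RPS27AP16 -1.0 ± 0.19 and RPS27A 1.73. PTMAP5 (-1.79 ± 0.15) and its parent PTMA (-0.22) were both lower. MTCYBP18, a copy of the mitochondrial cytochrome b gene, lay at 18.6 to 36.3 CPM against 33.4 to 148 CPM (-1.81 ± 0.15), with 1.86% of its windows in MT-CYB. Mitochondrial genes themselves were not analysed here. TMSB4XP8 gave -1.08 ± 0.18 while TMSB4X gave 1.96, with 46.5% of the pseudogene's windows found in TMSB4X. The matching stretches of this pair are printed to show how little separates them, from GRCh37, with the differing base in capitals. They share 134 of 135 bases (99.3%).
TMSB4XP8, chr4:91760054-91760188: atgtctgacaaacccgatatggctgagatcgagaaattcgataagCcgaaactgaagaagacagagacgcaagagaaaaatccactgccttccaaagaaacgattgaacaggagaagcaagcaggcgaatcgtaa
TMSB4X, within chrX:12993229-12995346: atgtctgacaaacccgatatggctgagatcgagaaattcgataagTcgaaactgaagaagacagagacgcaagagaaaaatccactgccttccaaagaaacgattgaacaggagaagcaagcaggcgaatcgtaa

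Among 11683 protein-coding genes without a named pseudogene, 3338 were higher and 2926 lower at the adjusted p, and 56 and 23 passed both cutoffs. The 14 hypoxia and glycolysis members without a named pseudogene had 12 higher and 1 lower (median 0.85), the 13 such ATF4 targets 12 and 1 (median 0.49), the 18 chemokine genes 13 and 1 (median 0.65) and the 11 oxidative phosphorylation genes 8 and 0 (median 0.49). Lists whose median came out more than 1.5 times smaller in such members, or on the other side of 0, included fatty acid synthesis (-0.09), mitosis (-0.0067), keratins and junctions (-0.02) and ribosomal proteins (-0.12).

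The differences also followed the composition of the transcripts. Over 16732 genes, the Spearman correlation of the log2 difference was 0.42 with GC content and -0.24 with transcript length, descriptions across genes that share libraries. From the decile of genes lowest in GC to the highest, the median log2 difference went from -0.26 to 0.37, and the share called higher from 6.45% to 56.1%. In single conditions the highest decile lay between 0.19 and 0.55. By length, the median was 0.20 in the second-shortest decile and -0.20 in the longest. After a loess correction for both in each library, 3928 genes were higher and 4102 lower at the adjusted p, and 100 and 66 passed both cutoffs, 88 and 47 of them shared with the uncorrected calls. The hypoxia and glycolysis list had 23 higher and 2 lower after the correction (median 0.62), the snoRNA host genes 18 and 0 (0.46), the ribosomal protein genes 44 and 14 (0.31), the oxidative phosphorylation genes 24 and 2 (0.24), the ATF4 targets 13 and 0 (0.29), the MHC class I genes 6 and 1 (0.21) and the immediate early genes 6 and 2 (0.23). The proteasome genes had 12 higher and 1 lower (0.18), the lysosome genes 9 and 1 (0.14), the chemokine genes 11 and 1 (0.43), the interferon-stimulated genes 13 and 1 (0.22), the extracellular matrix and integrin genes 15 and 5 (0.39), the sterol synthesis genes 3 and 2 (0.02) and the antisense long non-coding RNAs 60 and 120 (-0.08).

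**Figure D5:**
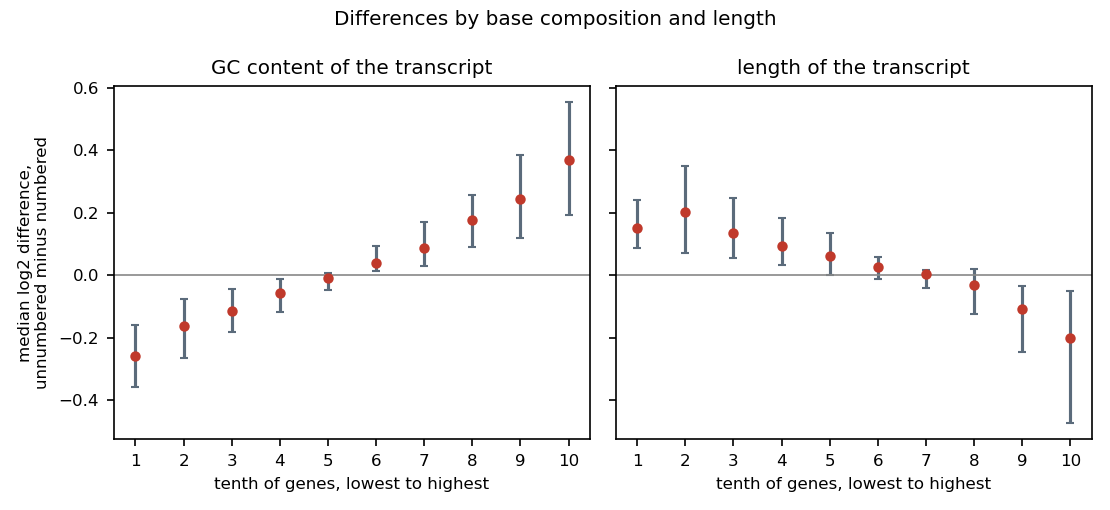
Median log2 difference of genes in deciles of GC content and of transcript length, with the range over the 8 conditions. The median rises from -0.26 in the lowest GC decile to 0.37 in the highest, and falls to -0.20 in the longest decile of transcripts.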

How the data were processed

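RNA was sequenced from 32 libraries of MDA-MB-468 cells, 4 for each of 8 conditions. The authors deposited raw gene counts. Per the labels and the study's methods, TruSeq libraries were read as 50-base single ends on a HiSeq4000, and the submitters' processing notes name bcl2fastq 2.19, STAR 2.5.2, GRCh37, Cufflinks 2.1.1 and DESeq2. The counting program, its annotation and its strand setting are not given in the sources used here. Without strand, overlapping and antisense genes cannot be told apart.

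Of 48804 identifiers in the table, 33132 had at least 1 count, and 17227 passed edgeR's filterByExpr (minimum count 10). Total counts ran from 25.7 M to 42.8 M per library. The counts were fitted in edgeR 4.0.16 (R 4.3.3, limma 3.58.1) by the quasi-likelihood test with TMM scaling, condition as a blocking term and 1 term for unnumbered libraries; changes with time, Sal and Das were interaction terms. Adjusted p is Benjamini-Hochberg over all genes tested. CPM in the text is TMM-scaled unless said otherwise. Single values per library were compared by the two-sided exact permutation test over 65536 exchanges within conditions. Processing alternatives included DESeq2 1.42.0, RLE scaling, no filter, thinned counts, GC and length correction (loess span 0.3), single times and each library left out.

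Genes were named by rule if they had a symbol and averaged 1 CPM or more: the 12 largest rises and the 12 largest falls beyond all numbered libraries in all 8 conditions, among those past both cutoffs first; up to 4 called members of each of 44 lists; and up to 4 per interaction. Other list members, the parents of pseudogenes and the pseudogenes RPS27AP16 and TMSB4XP8 were named after their values were seen. The members and lists were chosen with earlier results of these data known. On simulated counts for 16990 genes, of which 200 were changed, the main comparison found 100% at log2 1 and at log2 2 and called 4 unchanged genes. On 17002 genes the test of the change with time found 88.9% at log2 1 and 100% at log2 2. Unchanged genes were given no difference, counts were drawn independently, and only genes averaging above about 1 CPM were changed. In the data 26.7% of genes were called higher and 23.5% lower, and the differences followed GC content. Of the 132 genes higher past both cutoffs, 41 averaged 1 CPM or more. The simulated rates therefore do not describe this comparison.

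Gene positions are on GRCh37. Promoters are RefSeq sequences on GRCh38.p14. Mitochondrial genes were not analysed here.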

Additional observations from a re-analysis of the deposited data

Results flagged for a closer look

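Among the values of 66 sets of 8 conditions, 5 held a condition far from the others, each by a gap over range above Dixon's critical value of 0.526, where chance gives about 1 set in 20. These were the log2 difference of the pseudogene RPS2P46 in Das 24 h (2.34, gap over range 0.648), the median of the chemokine and cytokine list in control 24 h (1.26, 0.535), the medians of the keratin and junction list (0.60, 0.598) and the keratinocyte differentiation list (0.83, 0.659) in Sal 72 h, and the median of the ribosome biogenesis list in Sal 24 h (0.18, 0.545). Each was the highest of its 8 conditions, and each value rests on 1 unnumbered library.

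The difference between unnumbered and numbered libraries changed between 24 h and 72 h for 24 genes and with Das for 3. The change from 24 h to 72 h was -2.57 for FOS, -1.90 for JUN, -1.95 for PPFIA4 and 1.83 for CLMP on the log2 scale, by the edgeR test of the interaction. The change with Das was -1.55 for ALPP and -1.56 for GNG11 by the same test.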

How the results depend on the processing

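The counts of genes higher in the unnumbered libraries (132) and genes lower in the unnumbered libraries (53) were within 1.5 times of these under RLE scaling, DESeq2, thinned counts, summed numbered libraries, the GC and length correction and the 72 h libraries alone. With no filter on low counts they were 368 and 140, with the adjusted p alone 4605 and 4053, with a log2 cutoff of 1 they were 520 and 220, and among protein-coding genes without a named pseudogene, an alternative chosen after seeing the data, 56 and 23, the last from fewer genes tested. In the control libraries alone 71 were higher, and in the 24 h libraries alone 85 were lower. The genes whose difference changed between 24 h and 72 h (24), with Sal (0) and with Das (3) were 69, 1 and 10 with no filter and 114, 0 and 26 by the adjusted p alone, and DESeq2 gave 37 for time and 7 for Das. The cause of these moves was not tested.

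Leaving out 1 library at a time also applied the low-count filter anew, with 1 library fewer in the smallest condition, so the gene counts mix both changes. It gave 125 to 165 genes higher and 58 to 81 lower (81 without the unnumbered control at 24 h), the latter all above the 53 of all libraries. It gave 11 to 77 for time (37 without the unnumbered library of Das 72 h), 0 to 0 for Sal, 0 to 10 for Das and 0 to 0 between numbers. The difference in share ran from -0.0153 to -0.00738 percentage points for antisense genes (adjusted p past 0.05 without the unnumbered S+D 24 h), 0.0464 to 0.0756 for long non-coding RNAs (past it without 4 unnumbered libraries), -0.0291 to 0.0116 for protein-coding genes, -0.00419 to 0.00249 for pseudogenes and -0.161 to 0.0463 for the top 100 genes. Without Das 72 h replicate 3 and S+D 72 h replicate 1 together, chosen after seeing the data, 139 were higher and 60 lower.

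Among lists, the GC and length correction moved the ATF4 median to 0.29 and the spliceosome median to 0.0083, with 5 members lower. Members called higher in the 72 h libraries alone were 12 for glycolysis and hypoxia, 4 for chemokines, 30 for ribosomal proteins and 12 for snoRNA hosts, with fewer samples tested. Ribosomal protein members without a named pseudogene had a median of -0.12.

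The numbers 1 to 3 share only a number: 84 same-number pairs of numbered libraries had deviations correlated at -0.198 to 0.175 (median 0.003), with 5 over 0.1. With the replicate block, 135 genes were higher, 52 lower, 22 changed with time, 0 with Sal and 2 with Das, and 1 of 182 named results lost its call. DESeq2 lost 2, RLE scaling 0, and over the fits without 1 library 90 results lost their call and 5734 did not.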
